A study of Mus musculus with 6 samples.

Results

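The p53 target genes are the genes that the tumor suppressor p53, encoded by Trp53, switches on after stress, together with the genes that control p53 in return. They were taken by symbol from a list of 40 that is ordered by function (feedback, arrest, apoptosis, DNA repair, and metabolism with secreted or surface proteins). The rule takes rows by symbol and not by a measured value. However, the members, the other gene lists and the tests were chosen with earlier results of these data known. Of the 40 symbols, 38 had a row among the 25067 rows of the deposited table and 2 (Tap63 and Epha2os) had none. A total of 35 members had a mean normalized count of at least 10 over the 6 libraries and were tested, and 3 (Trp63, Trp73 and Def6) were under that limit.

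The RNA came from organoids grown from colonic crypts of C57BL/6 mice that were 8 weeks old and carried Prkcif/fPrkczf/f;Villin-CreERT2, that is, floxed alleles of both atypical protein kinase C (aPKC) genes, Prkci and Prkcz, and a tamoxifen-dependent Cre recombinase under the Villin promoter, which is active in intestinal epithelial cells. Organoids of this 1 genotype were cultured for 3 days after passage with ethanol vehicle (3 libraries) or with 4-OH-tamoxifen (4-OHT, 3 libraries) in medium with B27, WNT3A, EGF, Noggin and R-spondin 1. The labels call the vehicle libraries wild type, although their genotype entry is the same floxed one. No library had 4-OHT without Cre or without the floxed alleles, so loss of aPKC, Cre activity and 4-OHT itself cannot be told apart for any value given here. The labels do not say whether the 3 libraries of a group came from separate mice, so the p-values measure the spread between these libraries, which may be technical.

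Whole reads could be recovered from the normalized counts and came to between 15804709 and 26957612 per library. Prkcz fell from 912 ± 37.9 (SD, n = 3) to 281 ± 13.6 (SD, n = 3) normalized counts (log2 fold change -1.70). Prkci fell less, from 3520 ± 86.9 to 3021 ± 132 normalized counts with n = 3 in each group (log2 fold change -0.22). All 10 markers of colonic epithelium, among them Epcam, Cdh1, Cdx2 and Car1, had reads in every library. The 10 markers of Paneth cells and ileum summed to 33 to 46 RPM (reads scaled to the library total) under vehicle. In 4-OHT replicates 1, 2 and 3 this sum was 52.7, 105 and 98.6 RPM. In the vehicle libraries and 4-OHT replicate 1 it was mostly Ang4 and Lyz1. Ang4 had 512, 860 and 412 reads in vehicle replicates 1, 2 and 3 and 828 in 4-OHT replicate 1. Lyz1 had 155, 371, 147 and 176 in the same order. The other markers of this set had at most 6 reads in any of these libraries. The defensin gene Defa30 had 80.9 and 133 normalized counts in 4-OHT replicates 2 and 3 and no read in any other library. The 8 immune markers summed to 0.668 to 0.986 RPM in the other libraries and to 11.6 and 5.28 RPM in 4-OHT replicates 2 and 3, and the 6 smooth muscle markers to 0.147 to 0.727 and to 3.22 and 8.18. The 7 fibroblast markers stood at 10.6 in 4-OHT replicate 3 and between 1.97 and 3.58 elsewhere, and the 5 vessel markers between 1.76 and 2.97 throughout. The count of members is therefore also given without 4-OHT replicates 2 and 3.

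In unstressed cells p53 is made and destroyed continuously, because the ubiquitin ligase Mdm2 and its partner Mdm4 bind it and send it to the proteasome. DNA damage and other stresses free p53, which then binds a pair of 10-base half-sites near its targets and raises genes that halt the cell cycle, repair DNA or start apoptosis, as well as Mdm2 itself. In the intestinal epithelium this response is best known from irradiated crypts, where p53 induces Cdkn1a, which encodes the cyclin-dependent kinase inhibitor p21, and Bbc3, which encodes the apoptosis inducer PUMA.

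The p53 half-site was searched in RefSeq promoters (build GRCm38.p6, 250 bases before to 50 bases after each annotated start, and not the GRCm39 build named for the deposited values), which were at hand for 28 of the 38 members. The motif is its own reverse complement, so that 1 strand covers both. An exact half-site was present for 11 of 28 members (39.3%), for 9.55% of all 27025 genes with a promoter and for 8.3% of the tested ones. A pair of half-sites with at most 13 bases between them and at most 2 mismatches was present for 5 members (17.9%), for 4.71% of all genes and for 4.67% of the tested ones. Most members are listed because they are known p53 targets. An excess over all genes can therefore come from the list alone and is no result of these data. These 5 genes held 9 such pairs, some of which share a half-site, and the pair with the shortest spacer is shown for each gene, with a second one for Cdkn1a, because a pair of half-sites is the kind of sequence that p53 is known to bind. The half-sites are in capitals and each stretch is read along the strand of the gene. Bax, Ccng1 and Cdkn1a were higher in 4-OHT organoids, whereas Sesn1 did not pass the test and Trp73 was hardly expressed.
Cdkn1a (chr17:29090918-29090957, plus strand, 1 mismatch): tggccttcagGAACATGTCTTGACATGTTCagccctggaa
Cdkn1a, pair with no mismatch (chr17:29090896-29090947, plus strand): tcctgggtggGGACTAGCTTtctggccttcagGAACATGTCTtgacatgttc
Ccng1 (chr11:40755452-40755491, minus strand, 1 mismatch): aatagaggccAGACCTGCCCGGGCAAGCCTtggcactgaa
Bax (chr7:45467069-45467109, minus strand, 2 mismatches): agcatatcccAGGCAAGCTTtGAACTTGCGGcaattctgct
Sesn1 (chr10:41887243-41887285, plus strand, 2 mismatches): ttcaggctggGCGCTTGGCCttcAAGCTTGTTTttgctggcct
Trp73 (chr4:154097210-154097249, minus strand, 2 mismatches): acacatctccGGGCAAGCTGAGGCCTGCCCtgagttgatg

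The Cdkn1a pair with 1 mismatch starts 51 bases before 1 of the 2 annotated starts of the gene. Its first half-site also forms the pair with no mismatch, across a spacer of 12 bases, with a half-site that starts 73 bases before the same start. Single exact half-sites stood in the promoters of Mdm2 and Ddit4l, which were both higher in 4-OHT organoids, and of Trp53 itself, which did not pass the test. They also stood in those of Aen, Ei24 and Polk, which were higher, and of Ppm1d, which did not pass. Only the sequences of Mdm2, Ddit4l and Trp53 are shown.
Mdm2 (chr10:117710925-117710954, minus strand): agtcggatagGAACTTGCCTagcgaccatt
Ddit4l (chr3:137623572-137623601, plus strand): caactcccagGGGCTTGCCTgggcccctgc
Trp53 (chr11:69580274-69580303, plus strand): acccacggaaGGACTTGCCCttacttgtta
Of the 18 higher members with a promoter, 8 (44.4%) held an exact half-site, and of the 10 other members with one, 3 (30%) did. For pairs of half-sites the order was the other way, with 3 of 18 higher members (16.7%) and 2 of the 10 others (20%). A match is a description of the letters and does not show binding, and many p53 sites are known to lie outside such short windows.

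Of the 35 tested members, 24 were higher in 4-OHT organoids, 3 were lower and 8 did not pass the threshold (limma-trend, p adjusted by Benjamini-Hochberg, BH, under 0.05 over all 13210 tested rows). The share of higher members, 68.6%, stood beside 22.7% of all tested rows, and the share of lower members, 8.57%, beside 21% of all rows, and 43.6% of all rows passed in either direction. These shares describe a list chosen with earlier results of these data known and are no independent test of it. The median log2 fold change of the 35 members was 0.385, and that of all tested rows was -0.0054. A rise that passed the threshold and was more than 0.5 on the log2 scale was seen for 12 of the 35 tested members, against 6.68% of all tested rows. The 3 values of 4-OHT all lay above the 3 of vehicle for 23 members, where 26.8% of all rows did so, and below them for 2 members (Mdm4 and Ddb2), where 25.3% did so. The median difference from the vehicle mean was 0.442, 0.415 and 0.380 in 4-OHT replicates 1, 2 and 3 and between -0.0022 and 0.028 in the vehicle libraries. With 4-OHT replicates 2 and 3 left out, 20 members were higher and 2 lower, in a limma fit that lets the lone 4-OHT library vary like the vehicle libraries. In that fit 3848 of all rows passed in either direction, 51.7% of them higher, against 5765 rows and 52% with all libraries. The part of the Paneth, immune and smooth muscle transcripts in the members' values was not tested.

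**Figure D1:**
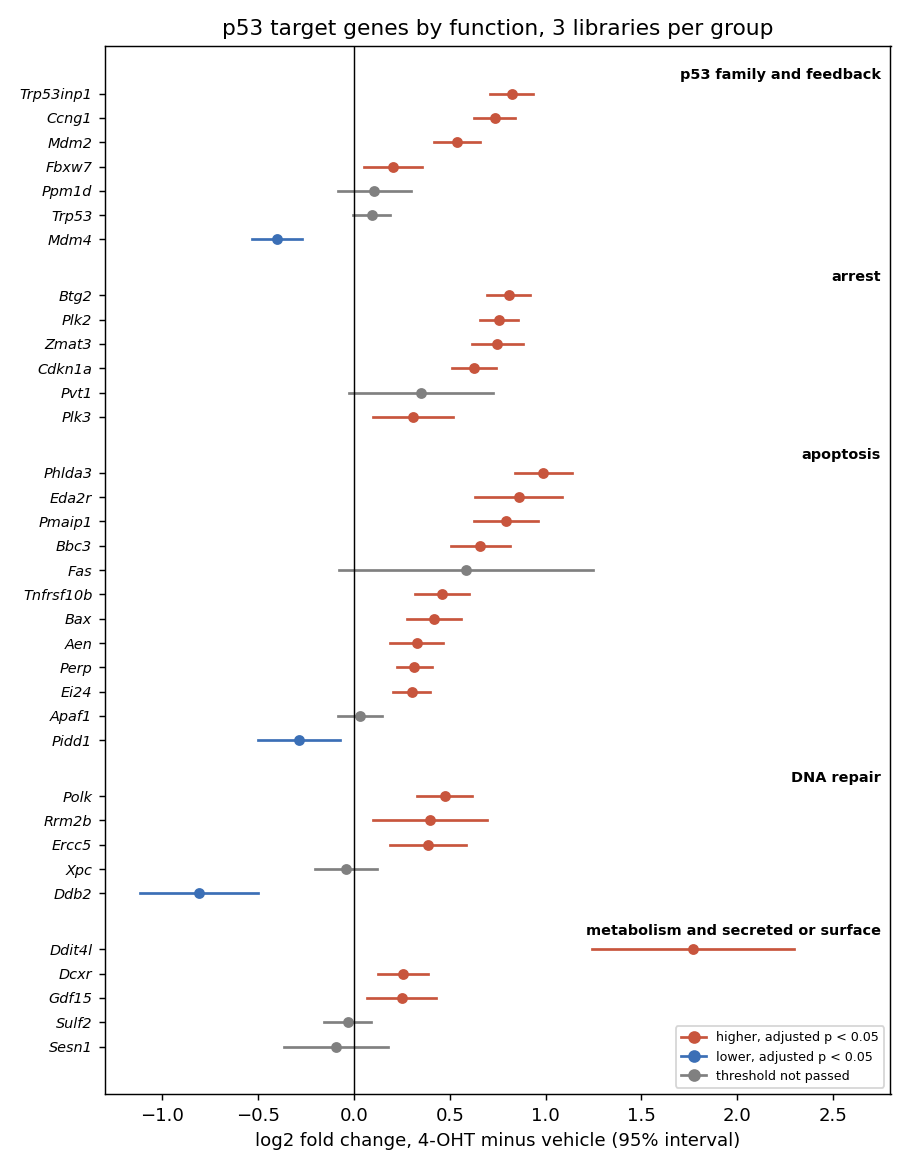
Log2 fold change of the 35 tested p53 target genes (4-OHT minus vehicle, 3 libraries per group), ordered by function, with the 95% interval of the limma fit as a line. Red marks the 24 members that rose, blue the 3 that fell (Mdm4, Pidd1 and Ddb2) and grey the 8 that did not pass the threshold, and Ddit4l stands apart at 1.77.

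Among the p53 family and feedback genes, 4 of 7 tested members rose (Trp53inp1, Ccng1, Mdm2 and Fbxw7), 1 fell (Mdm4) and 2 did not pass (Trp53 and Ppm1d). Trp53 had 3238, 3138 and 3368 normalized counts in vehicle replicates 1, 2 and 3 and 3550, 3464 and 3376 in 4-OHT replicates 1, 2 and 3. The transcript of p53 itself was therefore slightly higher in each 4-OHT library, but its log2 fold change of 0.09 (95% interval -0.0038 to 0.19, limma BH-adjusted p = 0.11) missed the threshold. Mdm2 had 2002, 1795 and 1680 normalized counts in the vehicle libraries and 2663, 2642 and 2630 in the 4-OHT libraries. The 4-OHT values of this p53 inhibitor lay close together and above every vehicle value, with a log2 fold change of 0.54 (SE 0.06, limma BH-adjusted p = 2.7e-07). Mdm4, the partner of Mdm2 that blocks p53 at its target genes, went the other way, with 2531, 2412 and 2298 normalized counts in vehicle and 2021, 1821 and 1653 in 4-OHT. The groups did not overlap, and the log2 fold change was -0.40 (SE 0.06, limma BH-adjusted p = 3.2e-05).

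The ratio of Mdm2 to Mdm4 normalized counts, looked at after both values were seen, was 0.756 ± 0.031 (SD, n = 3) in vehicle and 1.45 ± 0.14 (SD, n = 3) in 4-OHT. All 3 ratios of 4-OHT (1.32, 1.45 and 1.59) lay above those of vehicle (0.791, 0.744 and 0.731). Since Mdm2 did not overlap upward and Mdm4 did not overlap downward, this separation was given in advance. An exact permutation test of the log2 ratios (2-sided p = 0.1, n = 3 in each group) therefore adds nothing to it. The ratio depends on the lengths of both transcripts, so that only its change between the groups can be read.

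Trp53inp1, a stress protein that promotes p53 activity and autophagy, had 1311, 1339 and 1208 normalized counts in vehicle and 2239, 2329 and 2254 in 4-OHT. Its rise of 0.82 (SE 0.05, limma BH-adjusted p = 4.1e-10) was the largest of the feedback genes. Ccng1, which encodes cyclin G1 and helps to restore Mdm2 activity, had 3890, 3675 and 4168 normalized counts in vehicle and 6845, 6241 and 6428 in 4-OHT. Every 4-OHT library was above every vehicle library, with a log2 fold change of 0.73 (SE 0.05, limma BH-adjusted p = 9.7e-10). Fbxw7, a ubiquitin ligase receptor for cyclin E and Myc, rose by 0.20 on the log2 scale (limma BH-adjusted p = 0.030) and its call was among the weakest. It was lost in 7 of 17 alternative fits, among them those without vehicle replicate 1 (0.183) or 2 (0.213) and without 4-OHT replicate 1 (0.180) or 2 (0.170). Ppm1d, the phosphatase that switches p53 signaling off again, had a log2 fold change of 0.11 (95% interval -0.084 to 0.30) with overlapping groups. The p53 relatives Trp63 and Trp73 were near the limit of detection, with at most 1 read of Trp63 and at most 3 reads of Trp73 in a library, and no fold was formed from such counts, since a gene needs about 3 reads to be seen at all (counting error only).

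Of the 6 arrest genes, 5 rose (Btg2, Plk2, Zmat3, Cdkn1a and Plk3) and none fell, and the median log2 fold change of the 6 was 0.688. Cdkn1a, the p21 gene, had 4904, 4712 and 4244 normalized counts in vehicle and 6804, 7631 and 6964 in 4-OHT. The lowest 4-OHT library was well above the highest vehicle library, and the log2 fold change was 0.63 (SE 0.05, limma BH-adjusted p = 2.0e-08). Btg2, an antiproliferative factor that acts on mRNA decay, had 1420, 1368 and 1399 normalized counts in vehicle and 2499, 2545 and 2290 in 4-OHT. The vehicle values were nearly equal and the log2 fold change was 0.81 (SE 0.05, limma BH-adjusted p = 4.6e-10).

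Plk2, a polo-like kinase induced by stress, had 3060, 3004 and 2866 normalized counts in vehicle and 4865, 5271 and 4965 in 4-OHT. The groups were far apart, with a log2 fold change of 0.76 (SE 0.05, limma BH-adjusted p = 2.1e-10). Zmat3, a zinc finger protein that binds RNA and controls splicing, had 1346, 1158 and 1292 normalized counts in vehicle and 2309, 2073 and 1994 in 4-OHT, a log2 fold change of 0.75 (SE 0.06, limma BH-adjusted p = 1.7e-08). The related kinase gene Plk3 rose less, by 0.31 (limma BH-adjusted p = 0.017), with 1 vehicle value above the lowest 4-OHT value, and the call was lost without vehicle replicate 3 (0.207), 4-OHT replicate 2 (0.240) or 4-OHT replicate 3 (0.272), and without both of the latter (0.0996). Pvt1, a long noncoding RNA gene with a p53-responsive isoform, had a log2 fold change of 0.35 (95% interval -0.024 to 0.72, limma BH-adjusted p = 0.12) on 58.8 to 91.2 normalized counts, and its isoforms were not separated.

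**Figure D2:**
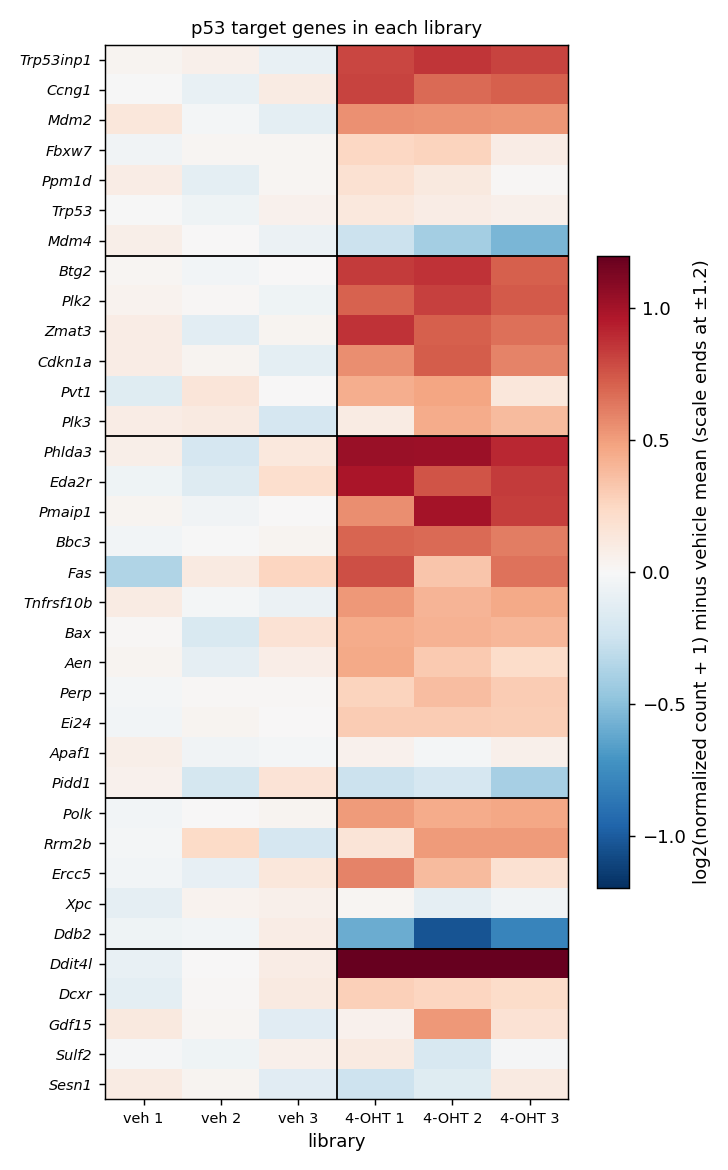
Each of the 35 tested p53 target genes (rows, black lines between functions) in each of the 6 libraries (columns), as log2(normalized count + 1) minus the mean of the 3 vehicle libraries. Most members are red in all 3 of the 4-OHT libraries, Mdm4 and Ddb2 are blue in all 3, and Ddit4l lies beyond the end of the colour scale.

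The apoptosis genes were the largest group, and 9 of 12 rose, 1 fell (Pidd1) and 2 did not pass (Fas and Apaf1). Phlda3, which competes with the survival kinase Akt for membrane lipids, had 1206, 997 and 1257 normalized counts in vehicle and 2349, 2342 and 2142 in 4-OHT. This was nearly a doubling, with a log2 fold change of 0.99 (SE 0.07, limma BH-adjusted p = 1.6e-09) that was higher than those of 97.8% of all tested rows. Eda2r, a receptor for ectodysplasin A2, had 200, 186 and 238 normalized counts in vehicle and 410, 349 and 371 in 4-OHT. The groups did not overlap and the log2 fold change was 0.86 (SE 0.11, limma BH-adjusted p = 2.4e-06).

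Pmaip1, which encodes the BH3-only protein NOXA, had 945, 899 and 929 normalized counts in vehicle and 1361, 1849 and 1639 in 4-OHT. The 4-OHT libraries spread more widely than the vehicle libraries, with replicate 1 lowest, and the log2 fold change was 0.79 (SE 0.08, limma BH-adjusted p = 1.2e-07). Without 4-OHT replicates 2 and 3 it was 0.558 and still passed. Bbc3, the PUMA gene, had 386, 394 and 403 normalized counts in vehicle and 638, 630 and 602 in 4-OHT. Both groups were tight, and the log2 fold change was 0.66 (SE 0.07, limma BH-adjusted p = 5.2e-07).

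The other apoptosis genes that rose did so by less than 0.5 on the log2 scale. They were the death receptor gene Tnfrsf10b (0.46), the pore-forming Bax (0.42), the nuclease gene Aen (0.33), the desmosomal tetraspan gene Perp (0.32) and Ei24 (0.30), which encodes a protein of the endoplasmic reticulum, with limma BH-adjusted p-values from 7.8e-06 for Perp to 4.4e-04 for Aen. For each of these 5 genes the 3 values of 4-OHT were above the 3 of vehicle. Pidd1, the scaffold of the complex that activates caspase 2, fell by 0.29 (SE 0.10, limma BH-adjusted p = 0.027), but its groups overlapped. The call was lost in 5 of 17 alternative fits, among them those without vehicle replicate 1 (-0.261), vehicle replicate 3 (-0.205) or 4-OHT replicate 3 (-0.232). Apaf1, the core of the apoptosome, had a log2 fold change of 0.03 (95% interval -0.084 to 0.14). The death receptor gene Fas had only 13.1, 18.4 and 20.6 normalized counts in vehicle and 30.0, 21.8 and 27.3 in 4-OHT. Its groups did not overlap, but the log2 fold change of 0.59 had an interval from -0.076 to 1.25 (limma BH-adjusted p = 0.14), so that a difference was not detectable at this depth.

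**Figure D3:**
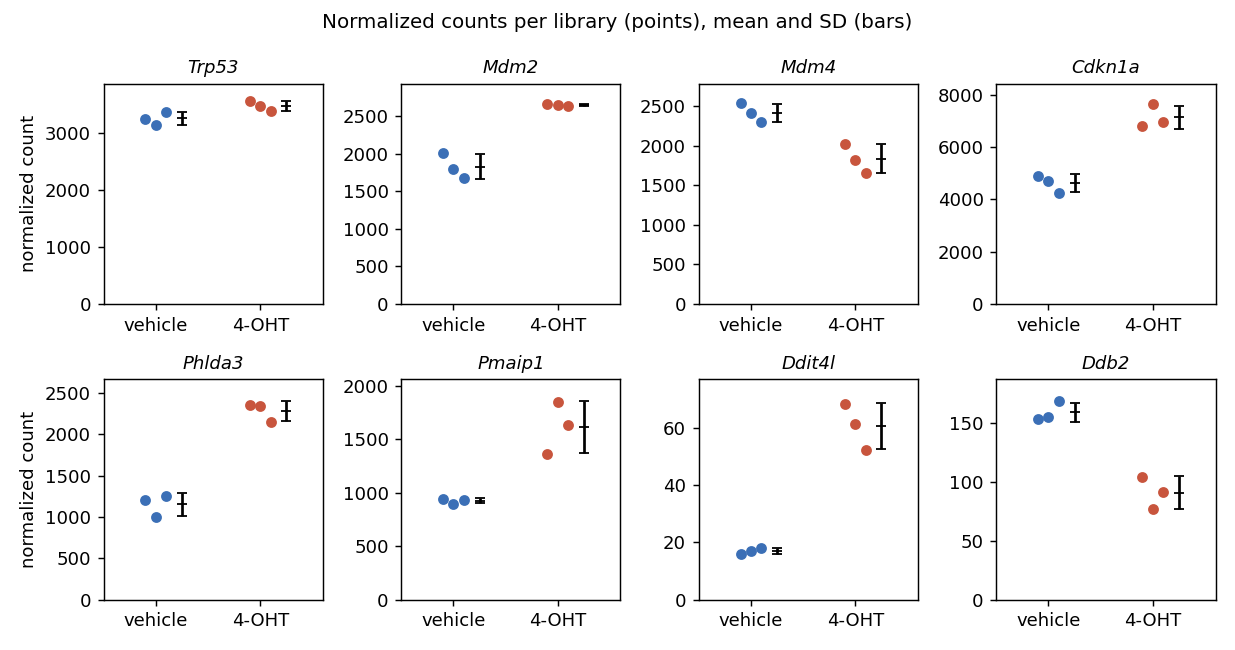
Normalized counts of 8 p53 target genes in each vehicle library (blue points) and each 4-OHT library (red points), with the mean and SD of the 3 libraries in black and axes that start at 0. Mdm2, Cdkn1a, Phlda3, Pmaip1 and Ddit4l are higher in every 4-OHT library, Mdm4 and Ddb2 are lower, and Trp53 differs little.

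The DNA repair genes were split, with 3 of 5 higher (Polk, Rrm2b and Ercc5), 1 lower (Ddb2) and 1 that did not pass (Xpc). Polk, a translesion DNA polymerase, rose from 514 ± 11.8 (SD, n = 3) to 714 ± 16.2 (SD, n = 3) normalized counts, or by 0.47 on the log2 scale (SE 0.07, limma BH-adjusted p = 1.2e-05). Ercc5, the XPG endonuclease of nucleotide excision repair, rose by 0.39 (SE 0.09, limma BH-adjusted p = 0.0026). Rrm2b, the p53-inducible subunit of ribonucleotide reductase, rose by 0.39 (SE 0.14, limma BH-adjusted p = 0.031), with overlapping groups. Its call was lost in 7 of 17 alternative fits, among them those without vehicle replicate 1 (0.381) or 3 (0.292) and without 4-OHT replicate 2 (0.335) or 3 (0.336), and the value was 0.158 without both of the latter.

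The damage recognition genes Ddb2 and Xpc were not among those that rose, and whether they answer to p53 in these mouse organoids was not tested. Ddb2, which finds ultraviolet lesions in chromatin, had 153, 155 and 168 normalized counts in vehicle and 104, 76.7 and 91.1 in 4-OHT. All 4-OHT values were below all vehicle values, and the log2 fold change was -0.81 (SE 0.15, limma BH-adjusted p = 1.6e-04), lower than those of all but 3.33% of the tested rows. Exons of Ddb2 share up to 410 bases with exons of Acp2 on the opposite strand in the GENCODE vM21 annotation, and whether the counting used strand is not given in the sources used here. Acp2 averaged 426 normalized counts in vehicle and 441 in 4-OHT. In all, 10 members share exon bases with another annotated gene (Ddb2, Cdkn1a, Plk3, Ei24, Rrm2b, Sulf2, Trp73 and Def6 on the opposite strand, and Bax and Pvt1 on the same strand), so that reads in these stretches may be assigned to either gene. Xpc, the sensor of bulky lesions, had a log2 fold change of -0.04 (95% interval -0.20 to 0.12).

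In the group of metabolic, secreted and surface proteins, 3 of 5 tested members rose (Ddit4l, Dcxr and Gdf15) and none fell. Ddit4l, an inhibitor of the growth kinase complex mTORC1, had 15.9, 17.0 and 18.2 normalized counts in vehicle and 68.2, 61.2 and 52.4 in 4-OHT. It rose 3.56-fold in the means, with a log2 fold change of 1.77 (SE 0.25, limma BH-adjusted p = 1.1e-05) that exceeded those of 99.7% of all tested rows, though on few reads. Dcxr, a reductase of sugars and dicarbonyls, rose by 0.26 (SE 0.06, limma BH-adjusted p = 0.0025). Gdf15, a secreted stress hormone, rose by 0.25 (SE 0.09, limma BH-adjusted p = 0.027), with 1776, 1660 and 1485 normalized counts in vehicle and 1698, 2348 and 1840 in 4-OHT. The lowest 4-OHT value lay below the highest vehicle value, and the call was lost without 4-OHT replicate 2 (0.111) or vehicle replicate 3 (0.178), without 4-OHT replicates 2 and 3 together (0.0539), with quantile normalization (0.201) and with DESeq2 (0.255). Sesn1, a sensor that restrains mTORC1, had a log2 fold change of -0.10 (95% interval -0.37 to 0.18), and Sulf2, an extracellular sulfatase, one of -0.03 (95% interval -0.16 to 0.089). Def6, a guanine nucleotide exchange factor, had between 1 and 8 reads in a library.

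A list of 30 further p53 targets outside the member list showed a smaller and more mixed pattern. Of the 25 that were tested, 13 rose (52%, against 22.7% of all rows) and 5 fell (20%, against 21%), with a median log2 fold change of 0.197. Large changes were those of Thbs1 (1.48, limma BH-adjusted p = 9.1e-11), which encodes the matrix protein thrombospondin 1, the adenylate kinase gene Ak1 (1.23, limma BH-adjusted p = 0.0090) and Zfp365 (1.10, limma BH-adjusted p = 2.9e-04). Thbs1 had 323, 376 and 400 normalized counts in vehicle and 1105, 914 and 1046 in 4-OHT, with no overlap between the groups, and it is known to respond to pathways other than p53. Among the genes that fell were Gls2, Ckap2, Notch1 and Gtse1, named after their values were seen. The 7 that did not pass were Sesn2, Tigar, Fdxr, Pml, Ninj1, Trp53i13 and Steap3, with log2 fold changes from -0.37 for Trp53i13 to 0.08 for Ninj1, and 5 (Dram1, Rprm, Ptprv, Spata18 and Trp53cor1) had at most 5 reads in a library.

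Genes that act on p53, or that carry the damage signal to it, were mostly lower. Of 18 such regulators, 10 fell (55.6%, against 21% of all rows) and 3 rose (16.7%, against 22.7%), with a median log2 fold change of -0.186. The largest falls were those of Mdc1 (-0.91, limma BH-adjusted p = 8.3e-10), an adaptor at DNA breaks, the checkpoint kinase gene Chek1 (-0.79, limma BH-adjusted p = 2.4e-06), H2ax (-0.68, limma BH-adjusted p = 4.5e-08), whose histone is phosphorylated at breaks, and the damage kinase gene Atr (-0.64, limma BH-adjusted p = 3.7e-07). For Mdc1 the vehicle libraries had 1595, 1629 and 1500 normalized counts and the 4-OHT libraries 874, 775 and 871. The 3 that rose, named after their values were seen, were Trim24 (0.33), Cdkn2a (0.28) and Cop1 (0.15). Cdkn2a gives rise to the Mdm2 inhibitor p19Arf and to the kinase inhibitor p16, which the table does not separate, while Trim24 and Cop1 encode ubiquitin ligases of p53. For the regulators that fell, fewer dividing cells and less RNA per cell cannot be told apart in bulk RNA. The same holds for the other p53 targets that fell.

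The cell cycle genes known to be lowered through p21 and the DREAM repressor complex fell without exception among the 14 listed. Their median log2 fold change was -0.718, and 21% of all rows were lower. Whether this route acted here was not tested. Cdc25c fell by 0.94 on the log2 scale (limma BH-adjusted p = 2.2e-05), Cenpf by 0.93 (limma BH-adjusted p = 3.4e-09), Foxm1 by 0.89 (limma BH-adjusted p = 5.0e-08) and Top2a by 0.82 (limma BH-adjusted p = 2.1e-11). They encode a phosphatase that starts mitosis, a kinetochore protein, a transcription factor of mitotic genes and a topoisomerase of dividing cells. Top2a had 9263, 9408 and 9661 normalized counts in vehicle and 5348, 5173 and 5503 in 4-OHT, with no overlap between the groups. In bulk RNA, fewer dividing cells and less RNA of these genes per cell cannot be told apart, and the part of this fall in the values of the p53 target genes was not tested.

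**Figure D4:**
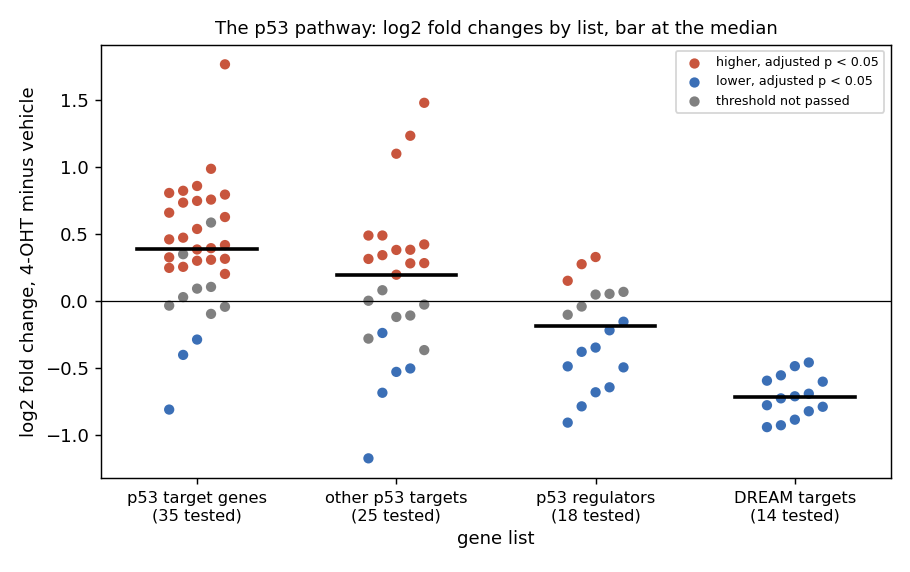
Log2 fold changes (4-OHT minus vehicle, 3 libraries per group) of the tested genes of 4 lists, each point a gene, coloured by its call, with a bar at the median. The medians are 0.385 for the p53 target genes, 0.197 for the other p53 targets, -0.186 for the p53 regulators and -0.718 for the DREAM targets.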

How the data were processed

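RNA of 6 libraries was sequenced by GENEWIZ per the labels. The submitters' processing notes name STAR, DESeq2 and the builds GRCm39 and mm39, without roles; counting tool, strand setting and annotation are not given in the sources used here. The authors deposited normalized counts, a signal in which each library's reads per gene are scaled by a library-wide size factor. Undoing that factor left whole reads, to within 0.1 reads, for 100% of values. The 25067 rows include 4 symbols on 2 rows each, none a member.

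The log2 of the normalized count plus 1 was compared with limma-trend (limma 3.58.1, R 4.3.3) over 13210 rows with a mean of at least 10, with Benjamini-Hochberg adjustment. Intervals are 95%, fold changes are on the log2(value + 1) scale, and the steps were tested on simulated data. The members, lists and tests were chosen with earlier results of these data known. Every member was named, with library values for Trp53, Cdkn1a, Mdm2 and members past the threshold by more than 0.5 in log2, and the 4 largest changes of each other list, plus genes that did not pass among the other targets. One gene that this rule names is not reported here. Alternatives were 2 pseudocounts, 2 filters, 2 scalings, the replicate block, libraries left out, thinning, edgeR 4.0.16 and DESeq2 1.42.0 on the whole reads. Libraries of a group differed by 3.55 to 6.41 times counting variance, so none was a copy.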

Additional observations from a re-analysis of the deposited data

How the results depend on the processing

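Over 17 alternatives the number of p53 target genes that were higher lay between 20 and 24 and the number lower between 2 and 3, with edgeR giving 24 and 3 and DESeq2 21 and 3. Of the 24 higher members, 20 kept their direction and threshold in every alternative that was run, while Fbxw7, Plk3, Rrm2b and Gdf15 each lost the threshold in at least 4. Mdm4 and Ddb2 kept theirs, and Pidd1 did not. Over all 627 values for single genes, 28 lost the threshold and 4 reversed: Apaf1 with quantile normalization (-0.0072), Sulf2 without 4-OHT replicate 2 (from -0.103 to 0.044 over the libraries left out singly), and Sulf2 (0.105) and Xpc (0.020) with 4-OHT replicates 2 and 3 left out. The median log2 fold change of the members was 0.338 with no filter, where members near 0 reads join, 0.350 with a minimum mean of 50, where Fas and Ddit4l drop out, 0.339 after thinning, 0.442 with 4-OHT replicates 2 and 3 left out, and 0.335 to 0.428 with each library left out in turn. Same-numbered libraries showed no pairing (correlations of deviations of -0.0074, 0.030 and -0.020), and the replicate block gave 24 members higher, 3 lower and 5637 rows in all, and changed no call of a member. The cause was not tested for the remaining changes. Trp63, Trp73 and Def6 had too few reads to be tested, and the interval of Fas was wide on few reads.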
